A study of Mus musculus with 6 samples.

Results

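The interleukin-1 (IL-1) family genes described here are 5 ligand genes, Il1a, Il1b, Il1rn, Il18 and Il33, and 5 receptor genes, Il1r1, Il1r2, Il1rap, Il1rl1 and Il18r1. They are 10 of the 29703 gene symbols in the table, chosen by symbol when the D14 and D0 counts of these same libraries were already known. Their comparison between the days is therefore a description and no independent evidence, and the p-values come from the fit over all genes. All 10 had a row in the table, and all 10 were among the 17686 genes that passed the filter on low counts. Bulk RNA was sequenced from lungs of balb/c mice that carried orthotopic implants of K7M2, an osteosarcoma line of the mouse known to metastasise to the lung, to follow the lung before metastases form. There were 3 libraries on day 0 (D0) and 3 on day 14 (D14), labelled as biological replicates. Animals of both days are labelled as implanted, the labels give no age or sex, and the series was analysed without a D14 group that received no cells, so effects of the tumour, the procedure, age and collection day cannot be told apart. The labels do not say whether a library came from 1 mouse or a pool.

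Cytokines of this family are made by epithelial, stromal and myeloid cells and act through paired receptor chains whose intracellular TIR domains recruit the adaptor MyD88, IRAK kinases and TRAF6, which activate NF-kB and MAP kinases. IL-1 alpha is active as a full-length protein and serves as an alarm signal of injured cells, whereas IL-1 beta and IL-18 are made as precursors that caspase-1 cleaves in inflammasomes. IL-33 is stored in the nucleus, in the mouse lung chiefly in alveolar type 2 cells, and acts on group 2 innate lymphoid cells (ILC2), mast cells and regulatory T cells that carry its receptor ST2. The family has built-in brakes: a receptor antagonist encoded by Il1rn, a decoy receptor encoded by Il1r2, and a soluble form of ST2.

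In GRCm38, 4 of the 5 receptor genes lie on the same strand of chromosome 1. Il1r2 runs from 40074079 to 40125231, Il1r1 from 40225080 to 40317257, Il1rl1 from 40429570 to 40465415 and Il18r1 from 40465552 to 40500854. Only 136 bases separate Il1rl1 from Il18r1. Il1rap lies on chromosome 16 from 26581704 to 26730117. Of the ligand genes, Il1a (129299610 to 129309972) and Il1b (129364570 to 129371139) are neighbours on chromosome 2, with 54.6 kb between them, and Il1rn lies on the same chromosome from 24336853 to 24351494. Il18 is on chromosome 9 from 50554827 to 50581840 and Il33 on chromosome 19 from 29925114 to 29960718. All 10 are annotated as protein-coding. Genes that overlap 6 of the members in the annotation and have a row in the table reached at most 22 counts in a library (Bco2, which overlaps Il18).

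The promoters of Il1a and Il1b are shown because these neighbours had different values between the days, and those of Il1rl1 because it had the largest fold change of the family and 2 annotated start sites, 10059 bases apart. Each window is RefSeq sequence of GRCm38.p6, from 250 bases before to 50 after a start site, written 5′ to 3′ along the gene. The windows are chr2:129309923-129310222 (Il1a, minus strand), chr2:129371090-129371389 (Il1b, minus strand), and chr1:40429320-40429619 and chr1:40439379-40439678 (Il1rl1, plus strand). Capitals mark matches, on either strand, to TATAAA (the TATA box), TGANTCA (the AP-1 site), GGGCGG (the GC box) or the NF-kB consensus.
Il1a promoter: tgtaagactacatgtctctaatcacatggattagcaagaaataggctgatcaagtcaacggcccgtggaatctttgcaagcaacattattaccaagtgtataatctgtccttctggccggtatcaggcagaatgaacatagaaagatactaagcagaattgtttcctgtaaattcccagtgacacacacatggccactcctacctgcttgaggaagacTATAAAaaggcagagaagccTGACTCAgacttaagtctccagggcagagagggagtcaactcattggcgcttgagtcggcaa
Il1b promoter: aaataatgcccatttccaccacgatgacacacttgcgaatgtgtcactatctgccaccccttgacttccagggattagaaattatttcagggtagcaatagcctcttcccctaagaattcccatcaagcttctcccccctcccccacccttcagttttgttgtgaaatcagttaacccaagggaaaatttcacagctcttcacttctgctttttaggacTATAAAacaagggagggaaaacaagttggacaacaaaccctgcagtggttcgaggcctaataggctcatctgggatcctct
Il1rl1 upstream promoter: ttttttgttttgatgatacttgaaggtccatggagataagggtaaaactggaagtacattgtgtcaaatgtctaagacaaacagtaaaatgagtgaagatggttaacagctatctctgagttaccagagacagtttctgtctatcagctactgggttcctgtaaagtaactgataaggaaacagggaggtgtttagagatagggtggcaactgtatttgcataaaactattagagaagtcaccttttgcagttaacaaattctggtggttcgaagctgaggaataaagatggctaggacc
Il1rl1 downstream promoter: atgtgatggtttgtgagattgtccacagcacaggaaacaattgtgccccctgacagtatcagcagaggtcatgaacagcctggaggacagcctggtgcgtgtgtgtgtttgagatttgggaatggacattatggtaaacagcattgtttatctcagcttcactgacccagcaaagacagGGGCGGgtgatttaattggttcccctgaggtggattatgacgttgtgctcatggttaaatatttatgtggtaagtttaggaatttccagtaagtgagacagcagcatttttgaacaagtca

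A TATAAA match began 32 bases before the start site of Il1a and 31 bases before that of Il1b, and 13.6% of all 32851 RefSeq windows of this length held a match. The Il1a window also held TGACTCA, beginning 12 bases before the start site, where 7.81% of all windows matched TGANTCA and the Il1b window did not. No matches in the printed windows overlapped. The upstream Il1rl1 window held none of the 4 motifs, and the downstream window held a GGGCGG, as did 35.7% of all windows. The NF-kB consensus, present in 8.46% of all windows, had no match in the 4 printed windows, which says only that these letters are not there. Il1rap differed from them in base composition, with 33 CpG and 72% G and C in its window against 1 to 5 CpG in the 4 printed here.

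The libraries held 14878101 to 17385006 counts. Pearson correlations of log2 CPM (counts scaled to a common library size, with TMM factors) were 0.931 to 0.969 among D0 libraries and 0.968 to 0.970 among D14 libraries. D0 replicate 3 stood apart on the leading principal component, with a score of 82.8 where the others had −41.5 to 15.7. Alveolar type 2 markers were abundant everywhere, Sftpc between 12446 and 34630 CPM, and Sp7, which marks osteoblasts, had 0 to 2 counts in a library. Of the other listed markers of the osteoblast lineage, Bglap had 0 to 2 and Bglap2 0 to 8 counts in a library. Alpl had 263 to 591 and Runx2 101 to 148, and Ibsp and Dmp1 had no row. The samples are labelled as lungs, although their RNA extraction text speaks of BMDMs.

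None of the 10 members passed an adjusted p of 0.05 in edgeR's quasi-likelihood test, where 0.0339% of all tested genes did. At an unadjusted p under 0.05 stood 4 of the 10, Il1a, Il1rap and Il1rl1 on the higher side and Il1rn on the lower, against 12.6% of all tested genes (5.48% higher and 7.09% lower). DESeq2 called Il1a and Il1rl1, both higher, where it called 1.82% of the genes it gave an adjusted p, and 1.12% as higher. Limma-voom called 0 members and 0.0339% of all genes. The D0 and D14 ranges of CPM did not overlap for 5 of 10 members, against 21.6% of all tested genes (10.9% with D14 above and 10.7% with D14 below). Those 5 were Il1a, Il1r1, Il1rap and Il1rl1 with D14 above, and Il1rn with D14 below. Without D0 replicate 3 the count was 8, against 31.8% of all genes, and without scaling factors it was 4, against 20.4%, since Il1r1 then overlapped. The members' log2 fold changes ran from −1.75 to 2.06 with a median of 0.20, beside −0.03 over all tested genes. They were above 0 for 7 of 10 members and for 46.9% of all genes, and without scaling factors for 6 members, since Il1b was then below 0. An absolute value over 1 was reached by 3 members, Il1a, Il1rn and Il1rl1, and by 4.73% of all genes.

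**Figure D1:**
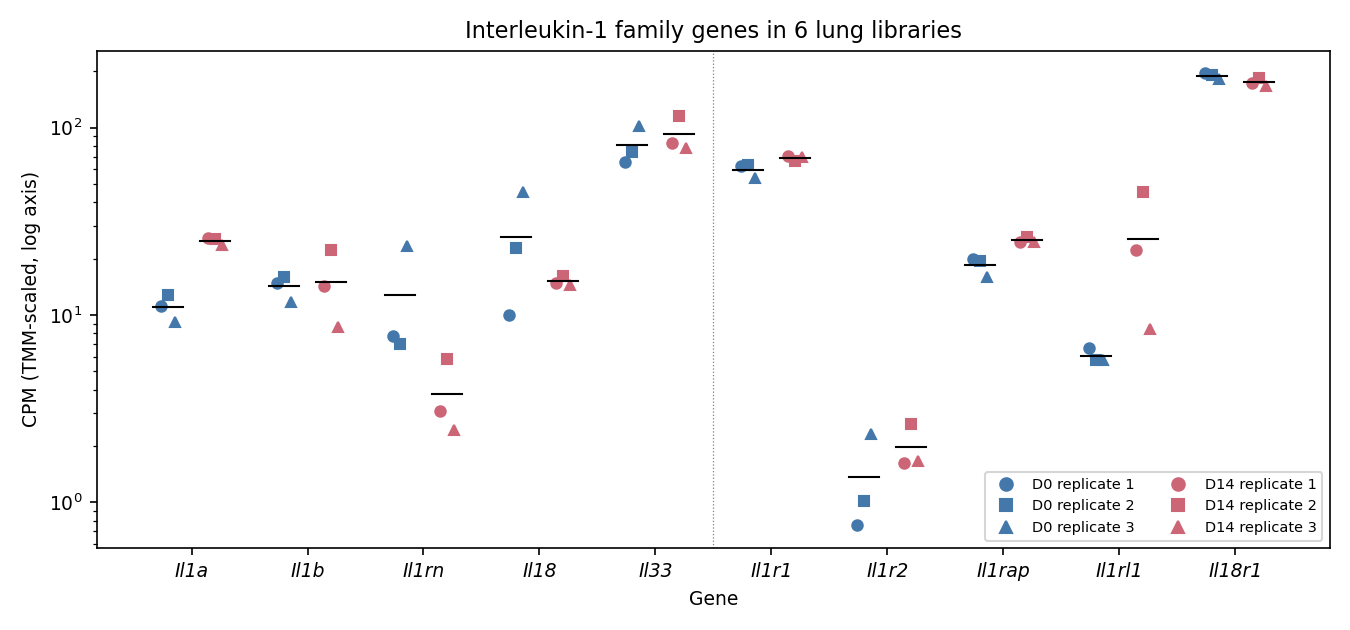
CPM of each gene in each library, on a log axis, with D0 in blue and D14 in red; marker shapes give the replicate number, black bars the mean of 3 libraries, and the dotted line parts ligands from receptors. Il1a has D14 libraries between 23.5 and 25.8 CPM, above all D0 libraries, while D0 replicate 3 is the highest D0 library for Il1rn and Il18.

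Among the ligands, Il1a had the clearest gap between the days relative to its spread. Its D0 libraries had 11.2, 12.7 and 9.20 CPM (replicates 1, 2 and 3) and its D14 libraries 25.8, 25.4 and 23.5 CPM. Every D14 library lay above every D0 library, and the spread within each day was smaller than the gap between the days. Means were 11.0 ± 1.76 and 24.9 ± 1.20 CPM (SD, n = 3 each), a 2.25-fold difference and a log2 fold change of 1.17 (SE 0.17). The adjusted p was 0.113 in edgeR and 6.24e-06 in DESeq2, and over the alternatives it ranged from 6.24e-06 to 0.477. The log2 fold change stayed between 1.06 and 1.29 when any 1 library was left out.

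Il1b, whose product needs cleavage before it is active, showed no such separation. It had 14.9, 16.0 and 11.8 CPM in the D0 libraries, compared with 14.2, 22.3 and 8.59 on D14. The highest and the lowest library were both at D14. The log2 fold change was 0.08 (SE 0.33) with adjusted p = 0.929 in edgeR, and it was −0.32 without D14 replicate 2 and 0.36 without D14 replicate 3. The summed CPM of the 8 listed neutrophil markers, all present in the table, followed the same order within D14. It was 145, 256 and 104 in replicates 1, 2 and 3. Most of this sum was S100a8 and S100a9, which had that order, as did Retnlg and Stfa2l1. Ly6g, Cxcr2, Csf3r and Mmp8 were also highest in replicate 2 but had replicate 3 above replicate 1. At D0 the order of the sums differed from that of Il1b, at 209, 148 and 119 CPM. The part of neutrophils in the Il1b values was not tested. In bulk RNA, fewer cells of a type and less RNA per cell cannot be told apart.

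Il1rn is the gene of the IL-1 receptor antagonist, which occupies the receptor without signalling. It had 7.73, 6.96 and 23.5 CPM in the D0 libraries, compared with 3.07, 5.80 and 2.44 on D14. The ranges did not overlap, but the gap between 6.96 and 5.80 CPM is small and D0 replicate 3 was about 3 times as high as the other D0 libraries. The log2 fold change was −1.75 (SE 0.55) with adjusted p = 0.364 in edgeR, and without D0 replicate 3 it was −0.96 (SE 0.38; adjusted p = 0.416).

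Il18, a gene that resting epithelium and macrophages already express, showed its spread at D0. The D0 libraries had 9.94, 22.7 and 45.1 CPM, whereas the D14 libraries lay together at 14.8, 16.2 and 14.4 CPM. The D14 range fell inside the D0 range. Its log2 fold change was −0.77 (SE 0.47) with adjusted p = 0.491 in edgeR and −0.11 (SE 0.33) without D0 replicate 3. In that library the 8 listed alveolar macrophage markers, all in the table, summed to 916 CPM, and the remaining D0 sums were 329 and 491 CPM, with 395 to 875 CPM at D14. Fabp4 and Car4, which lung capillaries also express, made up most of the sum in every library. Without them the sums were 123, 190 and 316 CPM at D0 and 136 to 163 CPM at D14. Of the 8 markers 4 were highest in D0 replicate 3, among them Marco with 35.7 CPM against at most 2.36 elsewhere, 3 were highest in D14 replicate 3 and 1 in D0 replicate 2. The sum of the 7 alveolar type 2 markers was 47869 CPM there and 21443 to 30315 CPM elsewhere. The part of these cells in the Il1rn and Il18 values was not tested.

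Il33, the alarm cytokine gene of alveolar epithelium, was the most abundant ligand gene by CPM. Its D0 libraries had 65.2, 74.2 and 102 CPM and its D14 libraries 83.2, 115 and 77.4 CPM. The groups overlapped, with a log2 fold change of 0.19 (SE 0.23) and adjusted p = 0.718 in edgeR, and without D14 replicate 2 the difference was −0.000364. Without D0 replicate 3 the log2 fold change was 0.40 (SE 0.19; adjusted p = 0.469).

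Among the receptors, the signalling chain gene Il1r1 varied little. It had 62.1, 63.1 and 53.5 CPM in the D0 libraries, compared with 70.4, 66.1 and 69.2 on D14. The D14 libraries were all above the D0 libraries by a small margin, with a log2 fold change of 0.20 (SE 0.13) and adjusted p = 0.517 in edgeR. Il1rap encodes the accessory chain that completes the receptors for IL-1, IL-33 and IL-36. It had 19.9, 19.3 and 15.9 CPM in the D0 libraries, compared with 24.6, 26.0 and 24.6 on D14, again without overlap. Its log2 fold change was 0.45 (SE 0.15) with adjusted p = 0.364 in edgeR and lay between 0.36 and 0.52 with any 1 library left out. The 7 listed endothelial markers, all in the table, summed to 4090, 2786 and 2016 CPM at D0 and to 4644 to 4734 CPM at D14. Their sum was lowest in D0 replicate 3, as Il1r1 and Il1rap were, and its part in these values was not tested.

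Il1r2, the decoy receptor that binds IL-1 but lacks a signalling domain, was the scarcest member. It had 13, 16 and 33 counts in the D0 libraries, compared with 28, 41 and 26 on D14. A count of 13 has an exact 95% Poisson interval of 6.92 to 22.2, which covers counting error only, and a count of 33 one of 22.7 to 46.3. The groups overlapped, with D0 replicate 3 above D14 replicates 1 and 3. The log2 fold change was 0.54 (SE 0.48) with adjusted p = 0.628 in edgeR and was 1.14 (SE 0.42; adjusted p = 0.403) without D0 replicate 3.

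Il1rl1, which encodes the IL-33 receptor ST2, had the largest fold change and the widest D14 spread. Its D0 libraries lay at 6.63, 5.75 and 5.76 CPM and its D14 libraries at 22.1, 45.5 and 8.40 CPM. The ranges did not overlap, but D14 replicate 3 was close to the D0 libraries and D14 replicate 2 was more than 5 times as high as replicate 3. The log2 fold change was 2.06 (SE 0.54), a 4.18-fold difference, with an adjusted p of 0.347 in edgeR and 0.00681 in DESeq2, and 0.00681 to 0.694 over the alternatives. It was 1.34 without D14 replicate 2 and 2.48 without D14 replicate 3. A gene count does not separate membrane ST2 from its soluble form.

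Markers of cells that carry ST2 were measured beside it. The 7 listed ILC2 markers summed to 64.2 to 82.3 CPM at D0 and 88.0 to 104 CPM at D14, led by Rora, which many cell types express. Without Rora the sums overlapped, at 20.4 to 31.6 CPM on D0 and 24.7 to 32.2 CPM on D14. Of the other tested markers, Gata3 (−0.92) and Klrg1 (−0.34) had log2 fold changes below 0, and Il7r (0.57) and Il17rb (0.26) above 0. The defining cytokines of ILC2 were near the detection limit: Il5 had 0 to 5 counts in a library and Il13 had 0 to 2. The sum of the 8 mast cell markers, most of it Kit, ran from 116 to 251 CPM at D0 and from 229 to 268 CPM at D14. Of the 5 tested mast cell markers, only Kit was higher, with a log2 fold change of 0.50. The other 4 were lower, and the median of the list was −0.57. The mast cell protease Cpa3 had 4.71, 4.09 and 11.9 CPM in the D0 libraries, compared with 3.36, 5.61 and 4.94 on D14. Neither the ILC2 nor the mast cell sum was highest in D14 replicate 2, where Il1rl1 was. Single mast cell markers differed. Within D14, Cpa3, Mcpt4, Ms4a2 and Fcer1a were highest in replicate 2, and Kit, Tpsb2, Tpsab1 and Cma1 in replicate 3. Ms4a2 had only 1 to 9 and Fcer1a 3 to 11 counts in a library. The sum of the 3 basophil markers, nearly all of it Gata2, was 96.4, 59.0 and 53.8 CPM at D0 and lowest within D14 in replicate 2, at 67.2 CPM beside 130 and 90.3. Among these markers Mcpt8 had 4 to 17 counts in a library, the most in D14 replicate 2, and Cd200r3 lay between 0.872 and 1.15 CPM at D0 and between 0.513 and 0.574 CPM at D14. For regulatory T cells, Foxp3 had 1.40, 0.575 and 1.90 CPM in the D0 libraries, compared with 2.26, 1.40 and 1.09 on D14. Il2ra had 3.60, 1.21 and 3.23 CPM in the D0 libraries, compared with 2.61, 4.66 and 3.14 on D14. The neutrophil marker sum, given above, had its highest value in D14 replicate 2. The part of any of these cells in the Il1rl1 values was not tested.

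Il18r1, the ligand-binding chain of the IL-18 receptor, had the highest CPM of the family and hardly varied. It had 195, 190 and 181 CPM in the D0 libraries, compared with 174, 184 and 168 on D14. The groups overlapped, with a log2 fold change of −0.11 (SE 0.13) and adjusted p = 0.729 in edgeR. The neighbouring Il1rl1, by contrast, differed several-fold among the same 6 libraries.

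**Figure D2:**
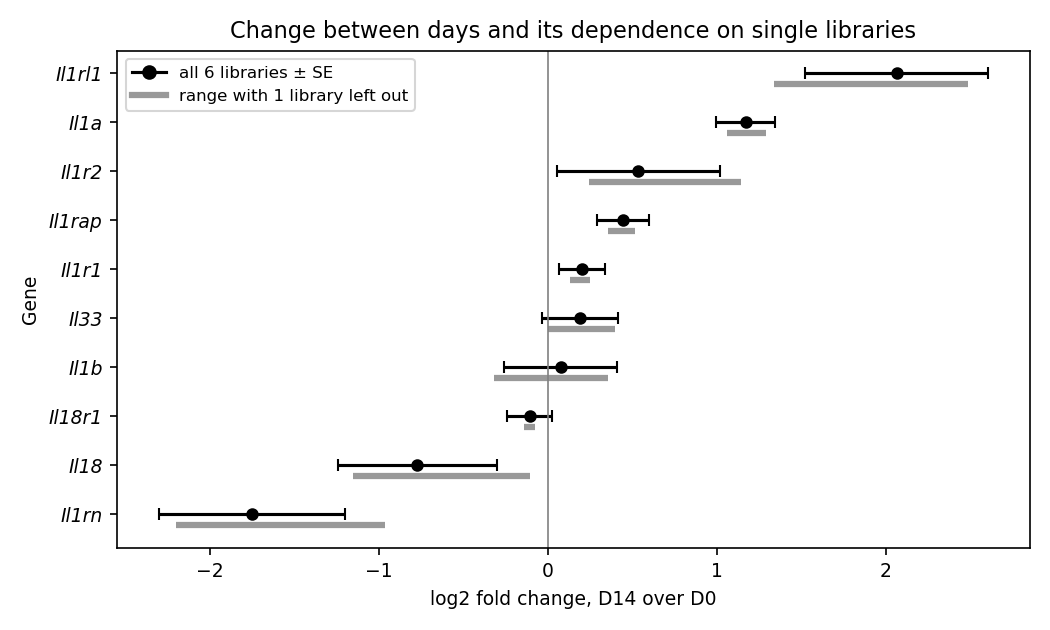
Log2 fold change of D14 over D0 for each gene, with points and bars giving the edgeR estimate and its standard error, and grey bars the range when each library was left out in turn. Il1a keeps the narrow range of 1.06 to 1.29, while Il1rn, Il18, Il1r2 and Il1rl1 move with single libraries, Il1b crosses 0 and Il33 reaches it.

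Levels of different genes were compared per kilobase of the longest annotated transcript. At D0 the order of CPM per kb was Il18r1 (45.3 ± 1.69), Il33 (31.6 ± 7.55), Il18 (29.3 ± 20.1), Il1b (10.5 ± 1.62), Il1r1 (10.2 ± 0.907), Il1a (5.60 ± 0.894), Il1rn (4.98 ± 3.64), Il1rap (4.07 ± 0.475), Il1rl1 (1.14 ± 0.0951) and Il1r2 (0.962 ± 0.589; SD, n = 3). Neighbours in that order overlapped over the 3 libraries except at Il18r1 above Il33, Il1r1 above Il1a and Il1rap above Il1rl1. At D14 Il1a stood at 12.6 ± 0.610 CPM per kb, beside Il1r1 at 11.8 ± 0.388 and Il1b at 11.1 ± 5.07, and these 3 overlapped with each other. Il1rl1 stood at 4.78 ± 3.53 CPM per kb, overlapping both Il1rap (5.55 ± 0.179) and Il1rn (1.48 ± 0.701). So at D0 the antagonist gene Il1rn overlapped with Il1a in level per length only through D0 replicate 3, its highest library at 9.18 CPM per kb. In the remaining D0 libraries Il1rn lay below the lowest of Il1a (4.66). At D14 the highest library of Il1rn (2.27 CPM per kb) lay below the lowest of Il1a (11.9).

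Ratios of members within a library do not depend on the scaling of libraries. The pairs were chosen after their values were seen and are given without a test. Il1rn counts per Il1a count were 0.689, 0.548 and 2.55 at D0 and 0.119, 0.229 and 0.104 at D14. All D14 libraries lay below all D0 libraries, with mean log2 ratios of −0.02 ± 1.20 and −2.82 ± 0.61 (SD, n = 3), and the difference of −2.80 became −2.12 without D0 replicate 3. Per Il1b count the Il1rn ratios were 0.520, 0.434 and 1.99 at D0 and 0.216, 0.261 and 0.284 at D14, again without overlap. Il1a counts per Il1b count were 0.754, 0.793 and 0.780 at D0, where the libraries nearly coincided, and 1.82, 1.14 and 2.74 at D14. The decoy ratio Il1r2 to Il1r1 overlapped between days, from 0.0122 to 0.0433 at D0 and from 0.0230 to 0.0396 at D14. Il1rl1 counts per Il18r1 count were 0.0341, 0.0302 and 0.0318 at D0 and 0.127, 0.248 and 0.0501 at D14.

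**Figure D3:**
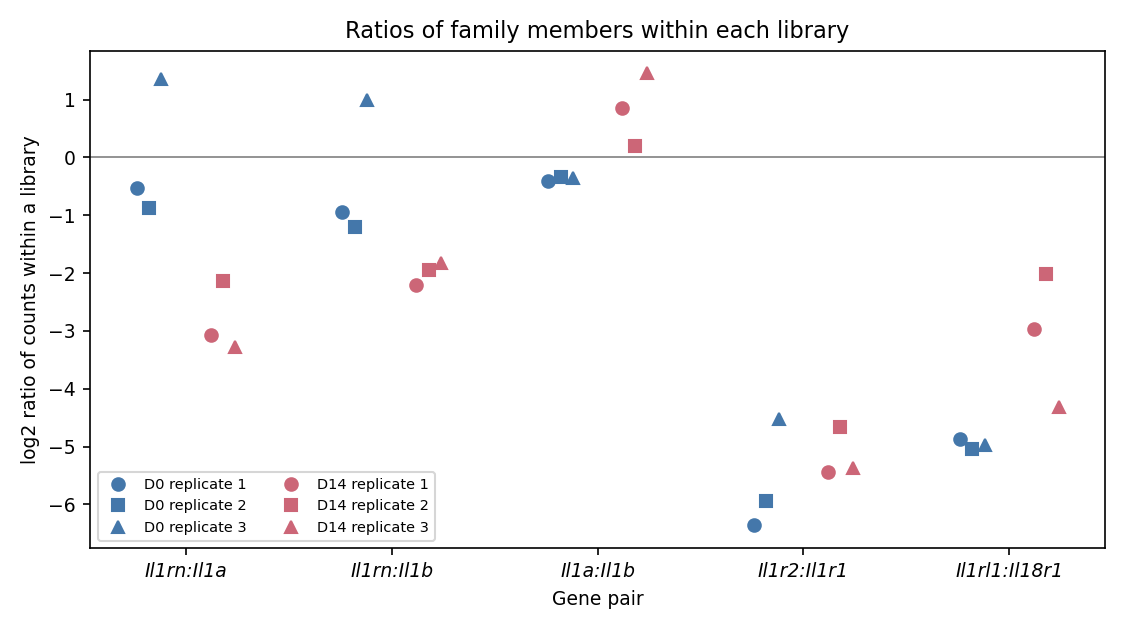
Log2 ratio of counts for 5 gene pairs within each library, with D0 in blue and D14 in red and marker shapes giving the replicate number; 0 means equal counts, not corrected for transcript length. Il1rn to Il1a runs from −0.87 to 1.35 at D0 and from −3.27 to −2.13 at D14, and Il1r2 to Il1r1 overlaps between the days.

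By the mean absolute difference of centred log2 CPM over the 6 libraries, among 11779 protein-coding genes outside the lists, the genes closest to Il1a were Ackr3 (0.0538), an atypical chemokine receptor, and Pank2 (0.0853), a pantothenate kinase. Ackr3 had 43.4, 48.7 and 40.03 CPM in the D0 libraries, compared with 101, 96.9 and 85.4 on D14. Closest to Il1b were Cd300lb (0.142), an activating receptor of myeloid cells, and 2700081O15Rik (0.145). Closest to Il1r2 were Ppp1r15a (0.143), a stress-induced phosphatase subunit, and Hspe1 (0.172), a mitochondrial chaperonin. For Il1rl1 the closest were B4gat1 (0.285), a glucuronyltransferase, and Gm45837 (0.306). B4gat1 reached 35.8 CPM in D14 replicate 2, the library where Il1rl1 was highest, and lay between 3.08 and 9.38 CPM elsewhere.

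The genes around the family were read from 5 further lists, in which 0 genes passed an adjusted p of 0.05 in edgeR and 0 in limma-voom. DESeq2 called 1, Tnfaip3, where it called 1.82% of the genes it gave an adjusted p. Over all tested genes, 12.6% had an unadjusted p under 0.05 in edgeR (5.48% higher and 7.09% lower), and 46.9% had a log2 fold change above 0. Of the other family genes, 9 of 15 listed symbols were in the table and 5 were tested, 1 higher and 4 lower, with a median of −0.20. At an unadjusted p under 0.05 stood 1 of them, Sigirr, an inhibitory receptor of IL-1 and Toll-like receptor signalling. It had 33.1, 30.3 and 34.3 CPM in the D0 libraries, compared with 23.8, 24.2 and 19.9 on D14, without overlap, and a log2 fold change of −0.53 (SE 0.15) with adjusted p = 0.347 in edgeR. Il1rl2, the IL-36 receptor gene on chromosome 1, stood at 0.27 (SE 0.15; adjusted p = 0.463).

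Of the inflammasome and cytokine processing genes, 18 of 22 were tested, 6 higher and 12 lower, with a median of −0.20. At an unadjusted p under 0.05 stood 3 of the 18, all lower, against 12.6% of all tested genes (7.09% lower). Among them were Pycard, the inflammasome adaptor ASC, and Card9, an adaptor of fungal recognition. Pycard had 8.55, 9.14 and 15.0 CPM in the D0 libraries, compared with 7.07, 4.15 and 5.26 on D14, which gave a log2 fold change of −0.98 and an SE of 0.31 (edgeR, adjusted p = 0.364). Card9 stood at −0.48 (SE 0.19; adjusted p = 0.382). The other gene was Casp1, the protease that cleaves the IL-1 beta and IL-18 precursors, at −0.57 (SE 0.23; adjusted p = 0.383), named after its value was seen. The most abundant of the list were Capn1, a calpain that cleaves the IL-1 alpha precursor, at −0.14 (SE 0.13) and Nek7, a kinase that binds NLRP3, at 0.36 (SE 0.76). Nek7 ran from 25.8 to 158 CPM at D0 and from 36.03 to 204 CPM at D14. Without scaling factors the count of higher genes in this list was 2. Markers of B cells were measured beside them: all 4 had log2 fold changes below 0 with a median of −0.98, DESeq2 called 2 and edgeR 0, and their summed CPM was 117 to 206 at D0 and 71.9 to 97.2 at D14. Pycard and Casp1 were highest in D0 replicate 3, at 15.0 and 14.6 CPM. The alveolar macrophage sum without Fabp4 and Car4 was also highest there, at 316 CPM. Summed monocyte markers ran from 223 to 268 CPM at D0 and from 213 to 275 CPM at D14, and the neutrophil sums overlapped too. The part of any of these cells in the values of this list was not tested.

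All 19 adaptors and kinases were tested, 15 higher and 4 lower, with a median of 0.13. An unadjusted p under 0.05 was reached by 1 gene, against 12.6% of all tested genes. That gene was Nfkb1, a subunit of NF-kB, at 116 ± 23.1 CPM on D0 and 156 ± 9.21 CPM on D14 (SD, n = 3); the log2 fold change was 0.42 (SE 0.18) and the edgeR adjusted p was 0.397. Irak4, the kinase that MyD88 recruits, stood at 0.33 (SE 0.14; adjusted p = 0.401) and Rela at 0.16 (SE 0.14; adjusted p = 0.635).

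Of the NF-kB induced targets, 18 of 22 were tested, 9 higher and 9 lower, with a median of 0.04. At an unadjusted p under 0.05 stood 1 higher, Tnfaip3, the NF-kB feedback inhibitor A20, and 1 lower, Csf2, the growth factor GM-CSF. The shares over all tested genes were 5.48% higher and 7.09% lower. Tnfaip3 had 34.4, 32.1 and 36.4 CPM in the D0 libraries, compared with 57.5, 59.2 and 56.1 on D14. These groups were far apart relative to their spread, with a log2 fold change of 0.75 (SE 0.13), an adjusted p of 0.199 in edgeR and 0.000227 in DESeq2, and 0.000227 to 0.694 over the alternatives. Csf2 had 41, 26 and 82 counts in the D0 libraries, compared with 23, 19 and 10 on D14, which gave a log2 fold change of −1.61 and an SE of 0.54 (edgeR, adjusted p = 0.364). Nfkbia, the inhibitor that NF-kB induces, had 185 ± 75.9 and 293 ± 13.5 CPM; the log2 fold change was 0.66 (SE 0.31) and the edgeR adjusted p was 0.420, and Icam1, an adhesion molecule, stood at −0.31 (SE 0.17; adjusted p = 0.463).

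Of the type 2 genes linked to IL-33, 8 of 12 were tested, 2 higher and 6 lower, with a median of −0.72. Gata3, the transcription factor of ILC2 and T helper 2 cells, had 11.3, 7.09 and 4.49 CPM in the D0 libraries, compared with 4.81, 3.38 and 3.97 on D14, which gave a log2 fold change of −0.92 and an SE of 0.36 (edgeR, adjusted p = 0.380). Arg1, arginase, stood at −1.22 (SE 0.47; adjusted p = 0.373). Retnla and Chil3, secreted products of alternatively activated macrophages, stood at −1.43 (SE 0.79) and −1.19 (SE 0.66). Without D0 replicate 3, where they had 167 and 427 CPM, these became 0.20 and 0.02. That library was also the highest D0 library for Areg, Ccl17, Ccl24 and Arg1, and the lowest for Gata3 and Il17rb. Ccl17 had 1.28, 1.53 and 11.0 CPM in the D0 libraries, compared with 5.04, 5.04 and 3.33 on D14. Arg1 and Gata3 stayed below 0 with any 1 library left out. The list median was not computed without D0 replicate 3.

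**Figure D4:**
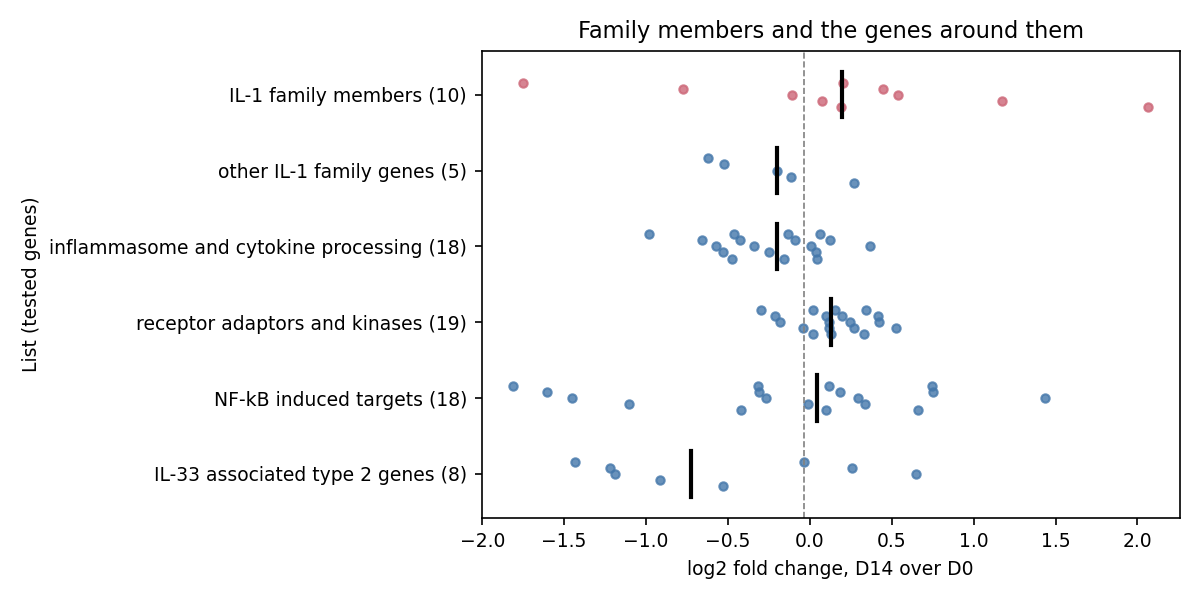
Log2 fold change of D14 over D0 for each tested gene of the family (red) and of 5 lists around it (blue), with black bars for list medians and a dashed line for the median of all tested genes (−0.03). The family spans −1.75 to 2.06, and the adaptors and kinases lie closer together than the NF-kB targets.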

How the data were processed

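The deposited table gives estimated counts per gene symbol for each of the 6 libraries, not scaled for depth. Per the labels, RNA was isolated with TRIzol and libraries were made with an NEB kit; the submitters' processing notes list the build GRCm38 and the tools edgeR, StringTie 1.3.4b, HISAT2 2.1.0 and CASAVA 1.8. How strand was handled and which tool counted are not given. Of 29757 lines, 2 empty and 2 displaced lines were left out, and of 50 lines repeating a symbol the highest total kept it. No member was affected. Counts, treated as estimated, were rounded.

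Libraries were grouped by the day in the labels and compared with edgeR 4.0.16 in R 4.3.3 (TMM, default low count filter, robust quasi-likelihood F test, two-sided, no covariate). Benjamini-Hochberg adjustment ran over the whole set of tested genes, with a threshold of 0.05. The SE is the log2 fold change divided by the root of F. CPM values are TMM-scaled, with a prior count of 2 on the log2 scale. Tests were tested on simulated data for D14 against D0: over 3 simulations with 17397 to 17441 genes, the test recovered 19.2% of genes set to a log2 change of 1 and 81.6% of genes set to 2, with 30 false calls among 320. Positions and transcript lengths are from GENCODE M21 (GRCm38).

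Members and lists were chosen with earlier results of these data known. Named were all members and, per list, genes past the threshold, the 2 with the smallest p and the 2 most abundant; and for Il1a, Il1b, Il1r2 and Il1rl1 the 2 genes outside the lists, with a mean of at least 5 CPM, most alike in pattern. Alternatives were DESeq2 1.42.0, limma-voom (limma 3.58.1), RLE or no scaling factors, other low count filters, the replicate number as a block, no robust estimation, summed repeated symbols, an added log2 fold change limit of 1 and each library left out.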

Additional observations from a re-analysis of the deposited data

How the results depend on the processing

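The number of members called was 0 with each setting except DESeq2, which called 2, Il1a and Il1rl1. Il1r2 received no adjusted p from DESeq2. Over all genes, 6 were called; DESeq2 called 272 and edgeR without a low count filter 26, and leaving out 1 library gave 0 to 22. With the replicate number as a block, 0 genes and 0 members were called. Same-numbered libraries did not deviate together (correlations of deviations 0.119, −0.0548 and −0.0972), so the numbers are not taken as pairs. Of the 10 members, 8 kept the sign of their log2 fold change in all 15 alternative fits. Il1b was −0.022 with limma-voom, −1.86e-05 with no scaling factors and −0.012 with the replicate block, and ran from −0.32 to 0.36 with 1 library left out. Il33 ran from −0.000364 to 0.40 with 1 library left out. Among the 17 named genes of the lists around the family, 3 changed sign, each with 1 library left out: Nek7 ran from −0.0895 to 0.82, Chil3 from −1.62 to 0.0153 and Retnla from −1.86 to 0.20. The causes were not tested. The members' median of 0.20 ran from 0.12 to 0.33 with 1 library left out and was 0.13 with no scaling factors, which moved the median of all genes by −0.07. Counts without D0 replicate 3 and the unscaled ranges were added after seeing the data: 5 members then had an unadjusted p under 0.05, against 11.6% of all genes, and 8 had ranges that did not overlap. Depth limits Il1r2 and the IL-36 genes, which had few counts.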

Other observations

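The IL-36 branch of the family, cytokines of keratinised and airway epithelium, appears in the table under the older symbols Il1f5, Il1f6, Il1f8 and Il1f9, and the first 3 were below the low count filter. Il1f6, which encodes IL-36 alpha, had 3, 16 and 39 counts in D0 replicates 1, 2 and 3 and 0 counts in each D14 library. Il1f8, IL-36 beta, had 0, 5 and 20 counts at D0 and 0 in each D14 library. Il1f5, the IL-36 receptor antagonist, had 4, 19 and 32 counts in the D0 libraries, compared with 0, 6 and 0 on D14. In each of these 3 genes D0 replicate 3 had the most counts. A count of 0 allows up to 3 counts in a library, 0.174 to 0.192 CPM at D14, for counting error only. Il1f9, IL-36 gamma, which was tested, had 48, 47 and 75 counts in the D0 libraries, compared with 16, 74 and 24 on D14, which gave a log2 fold change of −0.62 and an SE of 0.60 (edgeR, adjusted p = 0.651).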
